A study of Mus musculus with 7 samples.

Results

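The 37 genes described here encode soluble hydrolases of the lysosome, the soluble non-enzymes Psap, Gm2a and Grn, proteins of its membrane, and the transcription factors Tfeb and Tfe3. They were taken by symbol from a table of 23420 genes, without the cathepsins, and all 37 were found. RNA was sequenced from microglia, macrophages that live in the brain, which had been sorted by surface markers (CD11b+, CD45low, CX3CR1+) out of the cortex when the mice were 30 days old. The 4 cKO libraries are from animals with floxed alleles of Srgap2 (Srgap2f/f) and the Tmem119creErt2 transgene, whose recombinase is active in microglia once tamoxifen is given. The 3 WT libraries are from Srgap2f/f littermates that lack the recombinase. Tamoxifen was given to both groups alike, on postnatal days 8 and 10, at 75 ug per g each time. Only cKO mice carry the recombinase, so its effects and those of losing Srgap2 cannot be told apart. Each library is one numbered mouse, and p-values measure the spread between mice.

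Lysosomes are acidic compartments in which enzymes break down engulfed and worn-out material, and microglia use them to digest the debris and synaptic material they take up. Each hydrolase removes one kind of bond from a lipid, sugar chain or protein, membrane proteins shield the compartment and export the products, and TFEB and TFE3 switch on many of the genes together by binding a short DNA element in their promoters. Inherited loss of single enzymes causes the lysosomal storage disorders, several of which damage the brain.

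Levels are given as CPM, the count of a gene per 1000000 counts of its library after scaling. Values of single libraries follow replicate order, 1 to 4 in cKO and 1 to 3 in WT. Total counts ranged from 27016173 to 35707304 per library. Srgap2 had 344, 257, 275 and 212 CPM in the cKO libraries, against 979, 691 and 693 CPM in the WT libraries (log2 fold change −1.53, SE 0.17, adjusted p = 0.0053). The 12 microglial markers summed to between 51306 and 59474 CPM in cKO mice and between 58346 and 60578 CPM in WT. Tmem119, a microglial marker outside these 12 whose regulatory sequence drives the recombinase, had 3005, 3360, 3799 and 4664 CPM in the cKO libraries, against 6292, 6168 and 7212 CPM in the WT libraries, and fell (log2 fold change −0.82, SE 0.15, adjusted p = 0.0459). The sums of 7 border-associated macrophage markers lay between 66.3 and 131 CPM in cKO mice and between 72.2 and 110 CPM in WT. Markers of lymphocytes summed to at most 0.20 CPM in any library, those of monocytes and neutrophils to at most 10.5 CPM, with Retnlg at 0, and those of neurons to at most 3.49 CPM. Astrocyte markers summed to between 85.0 and 137 CPM in cKO mice and between 131 and 137 CPM in WT, and those of the oligodendrocyte lineage to between 197 and 285 CPM in cKO mice and between 180 and 211 CPM in WT. Markers of endothelial and mural cells lay between 57.4 and 76.5 CPM in cKO mice and between 72.5 and 80.4 CPM in WT, with Cldn5 and Rgs5 at 0. The part of other cells in the values that follow was not tested, and in sorted cells taken in bulk, fewer cells of a type and less RNA per cell cannot be told apart.

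None of the 37 lysosomal genes passed the quasi-likelihood test of edgeR between cKO and WT at an adjusted p of 0.05 (Benjamini-Hochberg over all genes tested), and most differed by little. DESeq2 called 1 of them, Ids (2.7%, against 4.49% of all genes), limma-voom called 0 (against 0.392%), and limma-voom with quality weights called 3, Ids, Cln3 and Naglu (8.11%, against 7.54%). All 37 were tested, each with at least 451 counts in every library. Of the 11991 genes tested, 0.359% passed with edgeR. At an unadjusted p under 0.05 the lysosomal genes counted 4, or 10.8%, against 16.5% of all genes. One of these 4, Ids, was higher in cKO, and Cln3, Arsa and Idua were lower. Without WT replicate 3 the lysosomal genes counted 1 (2.7%, against 13.5% of all genes), and without cKO replicate 2 or 3 they counted 2 each (5.41%, against 13.2% and 13%). Without cKO replicate 4 they counted 10 (27%, against 18.3%) and with quality weights 14 (37.8%, against 27%), so that the order of the shares depended on the setting. The median log2 fold change was −0.06 over the lysosomal genes and −0.01 over all genes tested. Of the 37 values, 23 lay below 0, which is 62.2% against 51.9% of all genes, but 18 lay below 0 with the level of Xist as a covariate. For 31 of the 37 genes the 95% interval of the fold change lay inside 1.5-fold in both directions (83.8%, against 55.7% of all genes). The exceptions were Ids, Arsb, Naglu, Sgsh, Cd63 and Glb1. The median SE was also smaller for the lysosomal genes, at 0.126 against 0.156 over all genes tested. A log2 fold change beyond 0.2 in either direction was about as frequent, in 16 of the 37 (43.2%, against 44.7% of all genes). Groups did not overlap for 6 genes, 3 higher in cKO (Ids, Lamp1 and Tpp1) and 3 lower (Scarb2, Cln3 and Idua). That is 16.2% of the lysosomal genes, and 16.1% of all genes tested had groups that did not overlap. By direction, every cKO library was higher for 8.86% of all genes and lower for 7.2%.

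**Figure D1:**
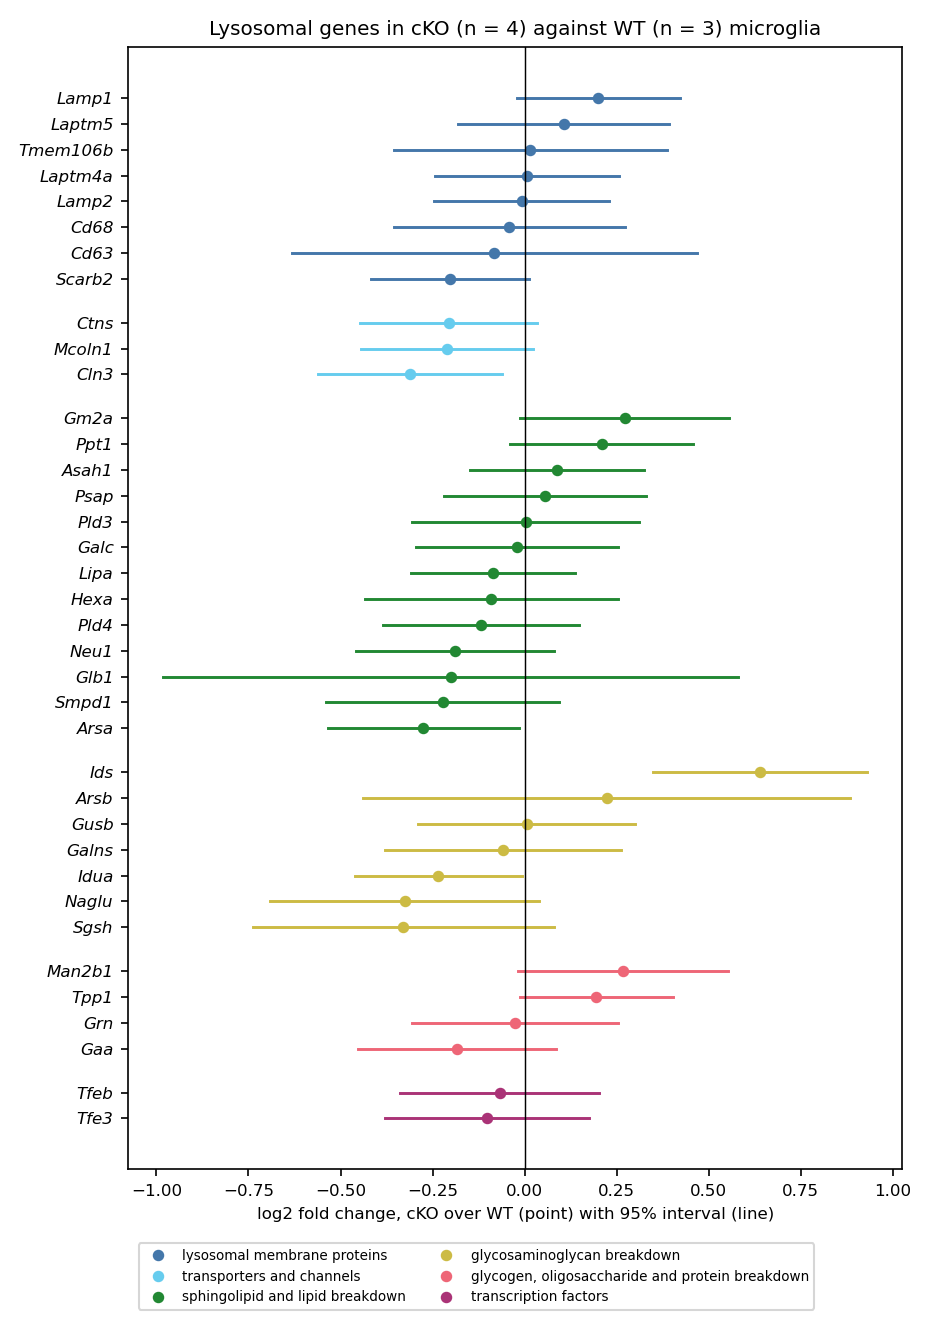
Log2 fold change of each lysosomal gene in cKO over WT (horizontal axis) with its 95% interval, ordered by role from top to bottom. Ids stands furthest to the right at 0.64, the intervals of Ids, Cln3, Arsa and Idua leave out 0, and none of the 37 genes passed after adjustment over all genes tested.

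Laptm5, Cd68 and Lamp1 were the membrane proteins among the 8 most abundant of the 37 genes per length. Per kilobase of transcript, Laptm5, a lysosomal membrane protein of blood cells and macrophages, stood at 2054 CPM averaged over the 7 libraries, second of the 37 to Psap at 2903 CPM. Cd68, the macrophage sialomucin used to stain microglial lysosomes, followed at 612 CPM per kilobase and Lamp1, a main glycoprotein of the lysosomal membrane, at 543 CPM per kilobase. Laptm4a, Cd63 and Lamp2 lay between 135 and 314 CPM per kilobase, and Scarb2 at 63.3 CPM per kilobase. Tmem106b, a membrane protein linked to frontotemporal dementia in humans, was second lowest of the 37 per kilobase.

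Laptm5 had 4795, 6126, 4969 and 6142 CPM in the cKO libraries, against 5565, 4586 and 5199 CPM in the WT libraries. The groups overlapped (log2 fold change 0.11, SE 0.13, adjusted p = 0.74). Lamp1 had 1219, 1339, 1228 and 1346 CPM in cKO, against 1071, 1095 and 1183 CPM in WT, so that every cKO library lay above every WT library, by a small margin (log2 fold change 0.20, SE 0.10, adjusted p = 0.35). Scarb2, the membrane receptor that carries glucocerebrosidase to the lysosome, lay the other way. It had 261, 286, 291 and 279 CPM in cKO, against 314, 345 and 305 CPM in WT mice (log2 fold change −0.20, SE 0.10, adjusted p = 0.33). For the other 5 membrane proteins the log2 fold change was between −0.08 (Cd63) and 0.02 (Tmem106b), and the groups overlapped.

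All 3 transporters and channels had a lower mean in cKO, and none passed. Cln3, a lysosomal membrane protein mutated in juvenile Batten disease, had 83.6, 84.8, 88.8 and 106 CPM in the cKO libraries, against 110, 108 and 120 CPM in the WT libraries. The groups did not overlap, with cKO replicate 4 close to the WT range (log2 fold change −0.31, SE 0.11, unadjusted p = 0.019, adjusted p = 0.20). Mcoln1, the calcium channel of the lysosomal membrane, averaged 47.7 ± 3.58 CPM in cKO (SD, n = 4) and 55.2 ± 2.78 CPM in WT (SD, n = 3), a log2 fold change of −0.21 (SE 0.11). Ctns, which exports cystine, averaged 79.9 ± 8.06 CPM in cKO mice and 92.1 ± 3.42 CPM in WT mice (log2 fold change −0.21, SE 0.11). The adjusted p was 0.35 for Mcoln1 and 0.38 for Ctns.

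The genes grouped under breakdown of sphingolipids and other lipids gave 5 values above 0 and 8 below. The group also holds Ppt1, which acts on proteins, and the nucleases Pld3 and Pld4. Pld3 was close enough to 0 to change sign with upper-quartile factors (−0.022). Psap, the precursor of the saposins that present sphingolipids to their enzymes, was the most abundant of the 37 per kilobase. It had 6567, 8225, 7496 and 9064 CPM in cKO, against 7472, 7497 and 7670 CPM in WT. Its WT libraries lay close together, and the cKO libraries spread to both sides of them (log2 fold change 0.05, SE 0.13, adjusted p = 0.87). Gm2a, the activator that lifts GM2 ganglioside for cleavage, had 381, 487, 413 and 527 CPM in cKO, against 377, 343 and 403 CPM in WT. Only cKO replicate 1 reached into the WT range (log2 fold change 0.27, SE 0.13, adjusted p = 0.32). Hexa, the subunit of the enzyme that then cuts this ganglioside, averaged 1500 ± 301 CPM in cKO mice and 1598 ± 151 CPM in WT mice (log2 fold change −0.09).

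Arsa, which removes sulfate from the myelin lipid sulfatide, had 73.9, 91.3, 73.7 and 86.9 CPM in cKO, against 89.0, 102 and 105 CPM in WT. One cKO library, replicate 2, lay above the lowest WT library (log2 fold change −0.27, SE 0.12, unadjusted p = 0.040, adjusted p = 0.27). Galc, which cleaves another myelin lipid, galactosylceramide, averaged 55.6 ± 4.62 CPM in cKO mice and 56.3 ± 8.19 CPM in WT. The sphingomyelinase Smpd1 had a log2 fold change of −0.22, the sialidase Neu1 of −0.19 and the acid ceramidase Asah1 of 0.09. Ppt1, which strips fatty acids from proteins and is mutated in infantile Batten disease, was at 0.21, and the acid lipase Lipa at −0.09. The lysosomal nucleases Pld3 and Pld4, which belong to the phospholipase D family by sequence, had log2 fold changes of 0.0031 and −0.12. Glb1, the lysosomal beta-galactosidase, had the widest interval of the 37, from −0.98 to 0.58.

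Among the 7 enzymes that take apart glycosaminoglycans, Ids had the smallest p of all 37 genes. Ids, the sulfatase that starts the breakdown of heparan and dermatan sulfate, had 110, 96.8, 117 and 87.8 CPM in the cKO libraries, against 75.3, 62.8 and 59.7 CPM in the WT libraries. The lowest cKO library stood above the highest WT library. The mean was 103 ± 12.9 CPM in cKO (SD, n = 4) and 65.9 ± 8.31 CPM in WT (SD, n = 3), 1.56-fold (log2 fold change 0.64, SE 0.13, unadjusted p = 0.00048, adjusted p = 0.0705). It passed in 8 of the 19 alternatives tried, with adjusted p from 0.0011 to 0.36 and log2 fold changes from 0.54 to 0.76. Among them were GC content and transcript length offsets, where 5.23% of all genes passed, the run of mouse numbers as a term (1.42%), DESeq2 (4.49%), limma-voom quality weights (7.54%) and no filter (0.543%). Without cKO replicate 4 its adjusted p was 0.047 (0.371% of all genes passed), and it passed in no other case where 1 library was left out. Ids is X-linked, as are Lamp2 and Tfe3, and the libraries differed in Xist, the RNA of the inactive X chromosome, which stood between 69.4 and 243 CPM in 4 of them and at no more than 0.66 CPM in the other 3. In libraries with Xist, Ids had 96.8 and 87.8 CPM in cKO, against 62.8 and 59.7 CPM in WT. In libraries without Xist it had 110 and 117 CPM in cKO, against 75.3 CPM in WT. With the level of Xist as a covariate its adjusted p was 0.0055, and 8.81% of all genes passed in that fit.

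The other 6 enzymes of this group had log2 fold changes between −0.33 and 0.22, and none passed. Idua, the iduronidase that acts after Ids, had 63.9, 67.2, 59.6 and 65.6 CPM in cKO, against 73.8, 71.1 and 81.3 CPM in WT, with every cKO library below every WT library (log2 fold change −0.23, SE 0.10, unadjusted p = 0.043, adjusted p = 0.28). Sgsh and Naglu, which cut heparan sulfate further, had log2 fold changes of −0.33 (SE 0.19, adjusted p = 0.41) and −0.33 (SE 0.17, adjusted p = 0.36). Sgsh was the lowest of the 37 in level, at 5.76 CPM per kilobase. Galns, which acts on keratan and chondroitin sulfate, was at −0.06 and the beta-glucuronidase Gusb at 0.0058. Arsb, the sulfatase of dermatan and chondroitin sulfate, was the most abundant of the group at 353 CPM per kilobase and is described with its split between libraries.

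The group of oligosaccharide, glycogen and protein breakdown also holds Grn, which is not an enzyme. In this group Man2b1, the alpha-mannosidase, had 2148, 2649, 2333 and 2790 CPM in cKO, against 1772, 2231 and 2180 CPM in WT. Replicate 1 of cKO lay inside the WT range and the other cKO libraries above it (log2 fold change 0.27, SE 0.13, adjusted p = 0.33). Tpp1, a peptidase mutated in late infantile Batten disease, had 409, 422, 382 and 390 CPM in cKO, against 362, 347 and 341 CPM in WT. It was higher in every cKO library and had the smallest spread within groups of the 37, an SD of 0.06 on the log2 scale (log2 fold change 0.19, SE 0.10, adjusted p = 0.33). Gaa, which degrades glycogen, averaged 218 ± 29.0 CPM in cKO mice and 248 ± 19.1 CPM in WT mice (log2 fold change −0.18, adjusted p = 0.50). Grn, the precursor of the granulins, had 2411, 3136, 2775 and 3205 CPM in cKO, against 2635, 3025 and 3143 CPM in WT. Its groups overlapped almost fully (log2 fold change −0.03, SE 0.13, adjusted p = 0.95).

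Neither transcription factor passed. Tfe3 had 198, 240, 212 and 277 CPM in cKO, against 254, 231 and 261 CPM in WT mice (log2 fold change −0.10, SE 0.13, adjusted p = 0.75). Tfeb averaged 95.7 ± 10.9 CPM in cKO mice and 100 ± 11.2 CPM in WT mice (log2 fold change −0.07, SE 0.12, adjusted p = 0.84). For each factor the groups overlapped. RNA levels do not show the activity of these factors, which is set largely by their move into the nucleus.

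**Figure D2:**
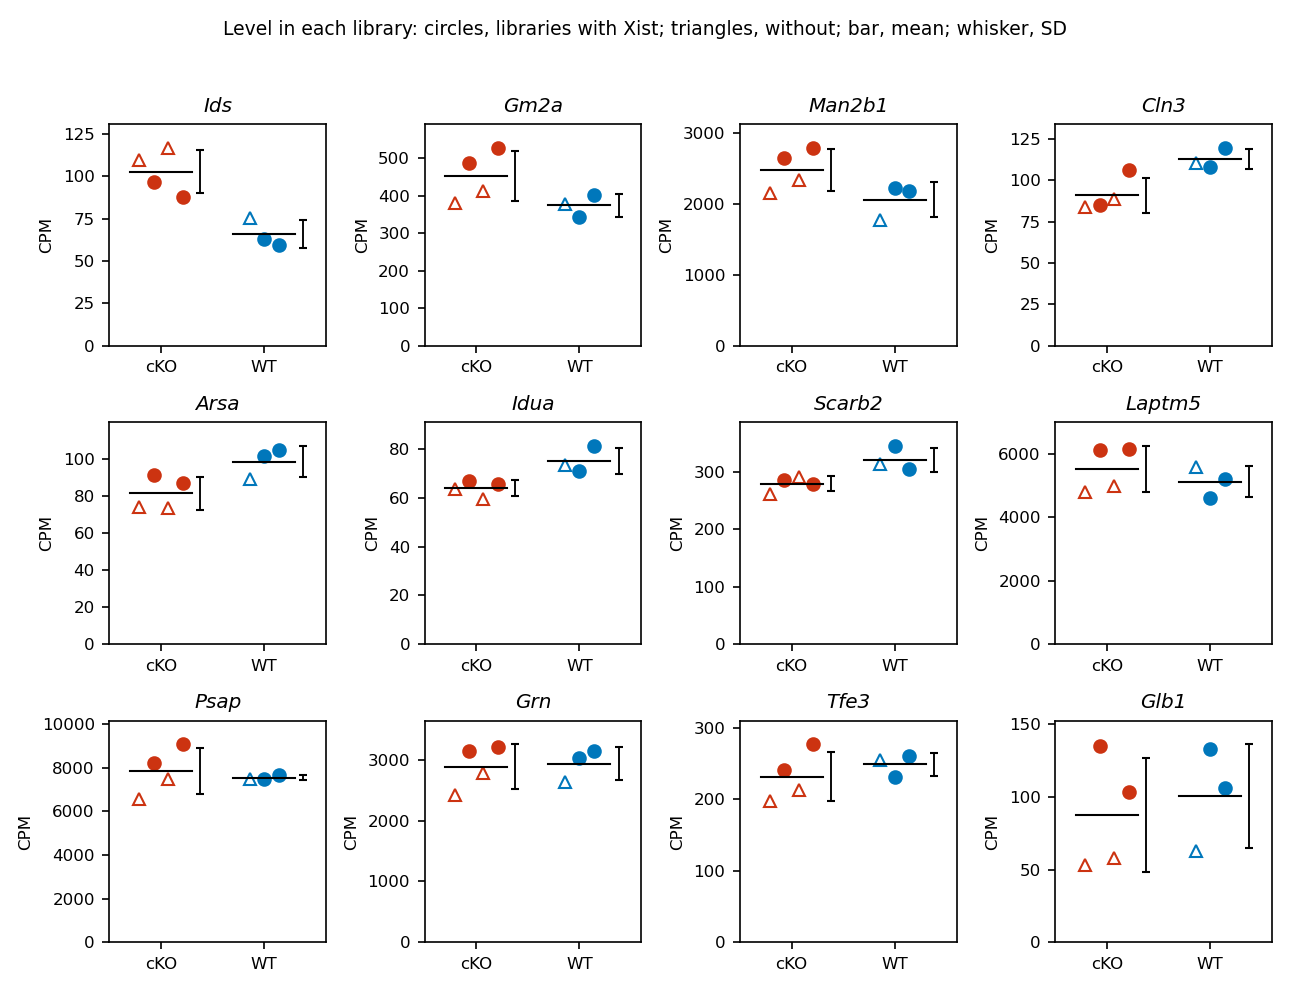
Level in each library (CPM, vertical axis from 0) for 12 of the genes, with cKO left of WT, bars at the mean and whiskers for the SD; circles are libraries with Xist and triangles libraries without. Ids is higher in every cKO library, Cln3, Idua and Scarb2 are lower in every cKO library, and for Glb1 the circles lie above the triangles in both groups.

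The element bound by TFEB and TFE3 contains the letters CACGTG, most often preceded by T or followed by A. Promoter sequences, from 250 bases before to 50 after the start of each gene (RefSeq, GRCm38.p6), were available for 35 of the 37 genes. Both strands were read at once, since CACGTG is its own reverse complement and TCACGTG on one strand is CACGTGA on the other; the 2 forms overlap where T precedes and A follows. Of the 35 genes, 8 held TCACGTG or CACGTGA in any promoter, which is 22.9%. The share was 7.09% of the 8980 tested genes with a promoter and 4.29% of all 27025 genes with one. Counted by promoter and not by gene, it was 3.77% of all 32851 promoters of the same length. Cln3 had 2 promoters, and each other gene of the 8 had 1. All 8 are shown because these letters are the feature the genes share, with the 7-letter forms in capitals. Each stretch is on the strand of the gene and ends at the latest on the last base before the gene's start.
Lamp1: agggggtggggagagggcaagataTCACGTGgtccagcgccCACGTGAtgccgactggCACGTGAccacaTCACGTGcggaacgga
Mcoln1: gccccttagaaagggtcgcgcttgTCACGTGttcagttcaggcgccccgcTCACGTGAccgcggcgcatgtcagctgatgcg
Cln3: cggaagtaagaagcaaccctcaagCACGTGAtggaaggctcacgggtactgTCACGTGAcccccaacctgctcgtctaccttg
Arsa: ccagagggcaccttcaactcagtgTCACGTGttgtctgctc
Glb1: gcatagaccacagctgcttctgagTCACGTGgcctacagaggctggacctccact
Naglu: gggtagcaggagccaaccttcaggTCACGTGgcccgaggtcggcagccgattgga
Sgsh: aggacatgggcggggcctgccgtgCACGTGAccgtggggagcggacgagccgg
Gaa: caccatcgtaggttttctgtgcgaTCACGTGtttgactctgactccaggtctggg

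These stretches lie at chr8:13159075-13159160 (plus strand) for Lamp1, chr8:3500423-3500504 (plus) for Mcoln1, chr7:126583327-126583409 (minus) for Cln3 and chr15:89477425-89477465 (minus) for Arsa. Those of Glb1, Naglu, Sgsh and Gaa lie at chr9:114401005-114401059 (plus), chr11:101069996-101070050 (plus), chr11:119355511-119355563 (minus) and chr11:119267798-119267852 (plus). Lamp1 holds 4 copies of CACGTG, of which the first begins 61 and the last 15 bases before its start. Mcoln1 and Cln3 hold 2 each, and the other genes hold 1. The coordinates are those of GRCm38.p6 and not of the GRCm39 build named for the counts. A match of letters is not evidence of a bound site.

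Of the 8 genes with these letters, 7 had a log2 fold change below 0, and the median was −0.24, with Lamp1, the gene with most copies, as the exception at 0.20. The 27 lysosomal genes with a promoter but without the letters had 15 values below 0 and a median of −0.02. Over all 637 tested genes whose promoter holds the letters the median was −0.01, with 51.8% below 0, and over the 8343 tested genes without them it was −0.0080, with 51.1% below 0. None of the 8 passed on its own, and Glb1 lay above 0 with the level of Xist as a covariate (0.090). The split was made after the fold changes were known and was not tested.

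**Figure D3:**
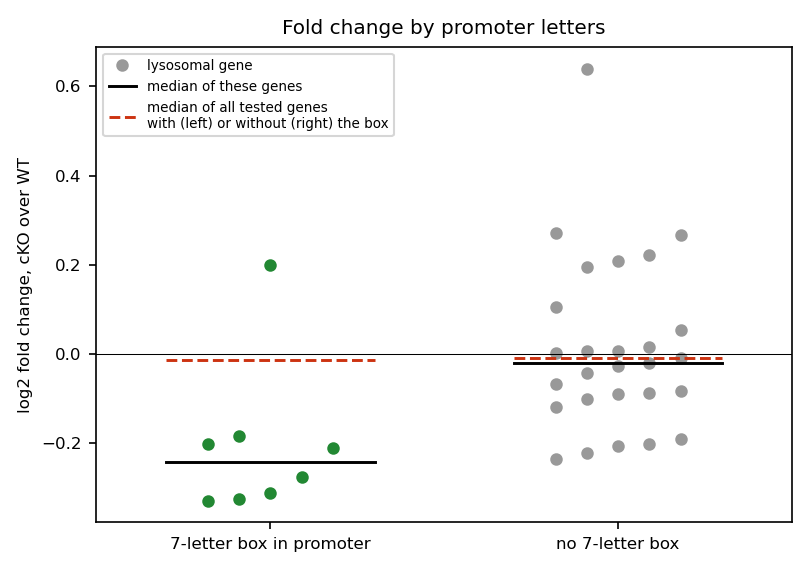
Log2 fold change in cKO over WT (vertical axis) of the lysosomal genes whose promoter holds TCACGTG or CACGTGA (left, 8 genes) and of those whose promoter does not (right, 27 genes). Solid lines mark their medians, −0.24 and −0.02, and dashed lines the medians of all tested genes with and without the letters, −0.01 and −0.0080.

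Many of the lysosomal genes shared one order of libraries that cut across the groups. In 12 of the 37, or 32.4%, all 4 libraries with Xist (cKO replicates 2 and 4, WT replicates 2 and 3) lay above all 3 libraries without it (cKO replicates 1 and 3, WT replicate 1), against 8.26% of all genes. The reverse held for 1 gene, Tmem106b, or 2.70%, against 10.8% of all genes. The 12 were Cd63, Laptm4a, Psap, Smpd1, Hexa, Glb1, Pld3, Gusb, Naglu, Galns, Gaa and Grn. Glb1 showed it most plainly, and it and Cd63 were chosen for this description after their values were seen. Glb1 had 135 and 104 CPM in the cKO libraries with Xist and 133 and 106 CPM in the WT libraries with Xist. Without Xist it had 53.0 and 58.3 CPM in cKO mice and 62.6 CPM in WT. Cd63, a tetraspanin of late endosomes and lysosomes, had 383 and 379 CPM in cKO mice and 409 and 365 CPM in WT with Xist, and without Xist 194 and 289 CPM in cKO mice and 215 CPM in WT. The same 4 libraries were also the deepest, with 30388655 to 35707304 total counts against 27016173 to 27388879 in the other 3.

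Base composition moved with the same split. Taken over genes, which do not count as replicates, the rank correlation within a library between GC content and the deviation of a gene from its mean ran from 0.07 to 0.44 in the 4 libraries with Xist and from −0.52 to −0.02 in the other 3. The transcripts of the lysosomal genes had a median GC content of 53.3%, against 50.2% for all genes tested. With the trends on GC content and transcript length removed from each library, a step chosen after seeing the data, 8 of the 37 lay higher in all 4 libraries with Xist (21.6%, against 5.98% of all genes). These were Cd63, Laptm4a, Hexa, Glb1, Gusb, Naglu, Gaa and Lamp2. Lamp2 was not among the genes listed before this step, and Psap, Smpd1, Pld3, Galns and Grn no longer showed the order. The part of sex, depth and base composition in this order was not tested. Replicate 4 of cKO held the highest level for 14 of the 37 genes (37.8%, against 22.7% of all genes) and cKO replicate 1 for 0 (against 16.2%), while WT replicate 3 held it for 11 (29.7%, against 11.1%) and WT replicate 1 for 1 (2.7%, against 19.3%).

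**Figure D4:**
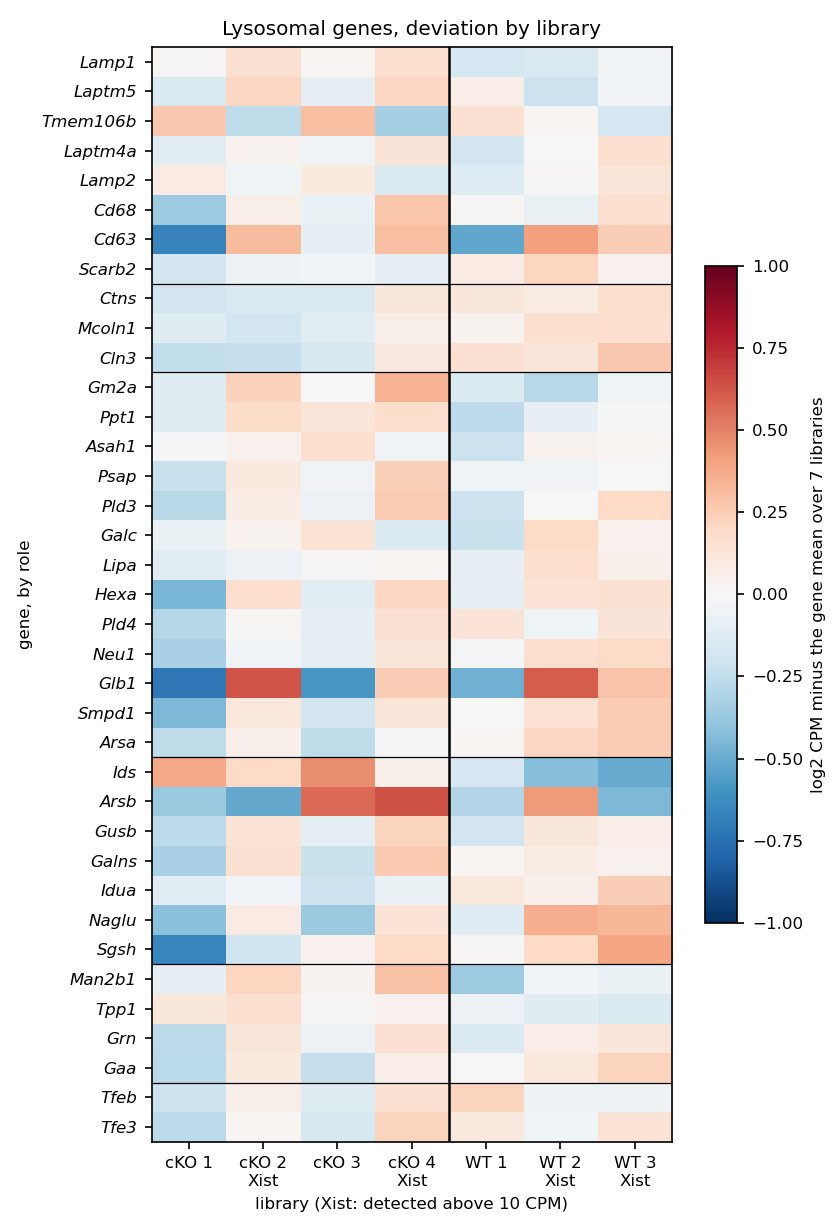
Deviation of each lysosomal gene from its mean over the 7 libraries (log2 CPM, red above and blue below), with genes in rows by role and libraries in columns, cKO left of WT. The column of cKO replicate 1 is mostly blue and that of cKO replicate 4 mostly red, Glb1 and Cd63 follow the libraries with Xist, and Arsb follows a split of its own.

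Arsb separated the libraries in another way, at either 947 to 1102 CPM or 1814 to 2094 CPM. It had 1042, 947, 2000 and 2094 CPM in the cKO libraries, against 1102, 1814 and 992 CPM in the WT libraries. The 3 high libraries, cKO replicates 3 and 4 and WT replicate 2, stood apart, the lowest of them 1.65 times as high as the highest of the other 4, and the groups overlapped (log2 fold change 0.22, SE 0.30, adjusted p = 0.77). Its spread within groups exceeded that of 92.6% of all genes tested. Of 9862 genes with a mean above 3 CPM, 5 lay at least 1.3 times higher in these 3 libraries than in the other 4, namely Arsb, Ctss, Arnt, Ctla2b and Tmem223, and 1, Kif5a, lay lower to the same degree. Ctss, which encodes the lysosomal cathepsin S, had 2802, 3346, 5940 and 5663 CPM in cKO, against 2461, 5341 and 2680 CPM in WT. Arnt, a partner of several helix-loop-helix factors and a near neighbour of Ctss on chromosome 3 (RefSeq, GRCm38.p6), had 54.0, 47.7, 85.5 and 83.4 CPM in cKO, against 53.2, 85.1 and 44.1 CPM in WT. Arsb lies on chromosome 13, as does Ctla2b, and Tmem223 lies on chromosome 19. These genes were chosen after their values were seen, and the split was not tested.

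**Figure D5:**
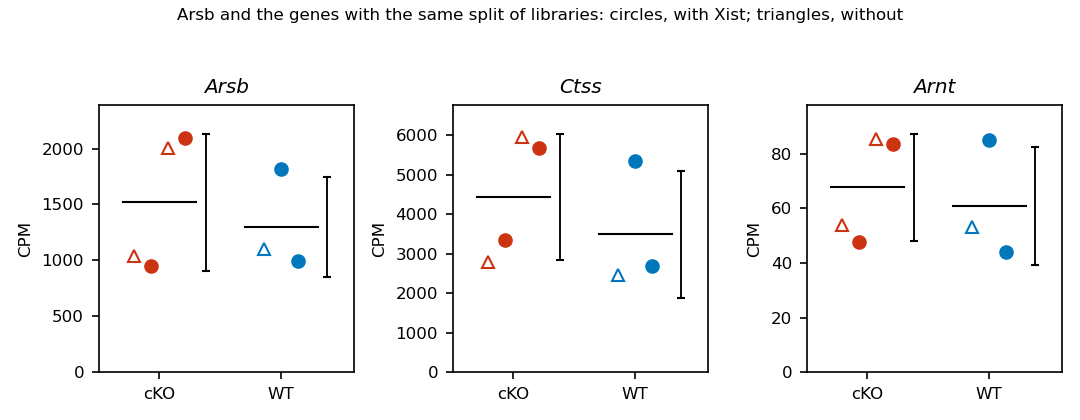
Level of Arsb, Ctss and Arnt in each library (CPM, vertical axis from 0), with cKO left of WT, circles for libraries with Xist and triangles for libraries without, bars at the mean and whiskers for the SD. In each panel 2 of the 4 cKO libraries and 1 of the 3 WT libraries stand above all others.

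The rest of the lysosome was read from lists of genes outside the 37, and 0 genes of any of them passed. On the list of other hydrolases, which also holds Gnptab, Gnptg, Nagpa, Sumf1 and Gpld1 from outside the lysosome, 29 genes were tested. Of these, 22 had values below 0 and 7 above, and 51.9% of all genes tested lay below 0. The median log2 fold change of the list was −0.05. Of the 29, 3 had an unadjusted p under 0.05 (10.3%, against 16.5% of all genes), all lower in cKO. These were the phospholipase Pla2g15 (882 ± 138 CPM in cKO mice and 1237 ± 43.0 CPM in WT mice, log2 fold change −0.49, SE 0.13, adjusted p = 0.13), the galactosidase Gla (−0.52, SE 0.18, adjusted p = 0.19) and Aga, which cuts sugars from asparagine (−0.30, SE 0.12, adjusted p = 0.24). Of 26 other membrane proteins and transporters, with the soluble Npc2 counted among them, 20 had values below 0 and the median was −0.21. At an unadjusted p under 0.05 there were 7 (26.9%, against 16.5% of all genes), all lower in cKO. In 7 of the 26 every cKO library was lower than every WT library (26.9%, against 7.2% of all genes), and in none of the 26 was every cKO library higher. Those with the smallest p were the lysolipid transporter Spns1 (91.8 ± 12.9 CPM in cKO mice and 129 ± 11.4 CPM in WT mice, log2 fold change −0.49, SE 0.13, adjusted p = 0.12), the metal ion transporter Slc11a1 (−0.32, SE 0.10, adjusted p = 0.16) and the amino acid transporter Slc36a1 (−0.43, SE 0.14, adjusted p = 0.16).

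The subunits of the vacuolar proton pump, which acidifies the lysosome, went both ways. Of 17 tested, 11 lay above 0 with a median of 0.12, and 5 had an unadjusted p under 0.05 (29.4%, against 16.5% of all genes). The membrane subunit Tcirg1 averaged 334 ± 35.3 CPM in cKO mice and 504 ± 63.8 CPM in WT mice (log2 fold change −0.59, SE 0.12, adjusted p = 0.0703). The others were subunits of the cytosolic part and lay higher in every cKO library, with Atp6v1f (136 ± 30.1 CPM in cKO mice and 92.5 ± 7.49 CPM in WT mice, log2 fold change 0.55, SE 0.16, adjusted p = 0.14) and Atp6v1g1 (0.41, SE 0.13, adjusted p = 0.16) in front. Of the 17, every cKO library was higher for 4 (23.5%, against 8.86% of all genes) and lower for 1 (5.88%, against 7.2%). Of 24 genes of sorting to the lysosome, 16 lay above 0 and 8 below, and the median was 0.11. An unadjusted p under 0.05 was found for 2 of them (8.33%, against 16.5% of all genes). These were Tsg101 (0.27, SE 0.10, adjusted p = 0.21) and Vps4b (0.29, SE 0.11, adjusted p = 0.23), which form inner vesicles of late endosomes, and the next was the adaptor subunit Ap3m1 (0.24, SE 0.11, adjusted p = 0.32).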

How the data were processed

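The deposited values are raw counts by gene symbol, whole numbers with no normalization, for all 7 libraries. DRAGEN and GRCm39 are named in the submitters' processing notes; no source used here gives the annotation, counting rule or strand setting, so overlapping and antisense genes and genes with close copies are uncertain. Genes were filtered with filterByExpr (least count 10, least total 15), scaled by TMM and compared with edgeR 4.0.16 and its quasi-likelihood F test (robust, no covariate; limma 3.58.1, R 4.3.3), with Benjamini-Hochberg adjustment over all 11991 genes tested and a threshold of 0.05. The SE is the log2 fold change over the square root of F, and 95% intervals use the test's degrees of freedom and are not adjusted. Log2 CPM used a prior count of 2. Transcript lengths and GC content came from GENCODE M21, 1 transcript per symbol, and chromosomes and neighbours from RefSeq GRCm38.p6. The code was tested on simulated counts.

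The 37 genes and all lists were chosen with earlier results of these data known. Every gene is named; values by library are given for the 3 smallest p in each direction and, in each role, for the smallest p and the highest level; other genes so described were chosen after their values were seen. From other lists, up to 3 genes with the smallest p are named. Alternatives were RLE and upper-quartile factors, DESeq2 1.42.0, limma-voom without and with quality weights, the non-robust fit, all genes with a count, genes at 1 CPM or more in 3 libraries, the replicate block, the run of mouse numbers (1058 to 1062 or 1101 to 1109), Xist as a covariate, GC content and length offsets (loess span 0.3), and leaving out each library.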

Additional observations from a re-analysis of the deposited data

Results flagged for a closer look

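Ctns, the cystine exporter, had 1 cKO library apart from the rest. Its level was 91.9 CPM in cKO replicate 4 and 74.5, 76.5 and 76.6 CPM in the other cKO libraries, and the WT libraries were at 91.5, 89.1 and 95.8 CPM. The gap exceeded the 95% critical value of Dixon's test for 4 samples. The 37 genes were each looked at in the cKO group, and chance alone gives about 1 such case in 20. Without each library in turn the log2 fold change of Ctns ranged from −0.28 to −0.18, and its adjusted p from 0.16 to 0.63.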

How the results depend on the processing

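The number of lysosomal genes past the threshold, 0 of 37 as reported, was 3 with limma-voom quality weights (Ids, Cln3 and Naglu; 904 of all genes). It was 1, Ids in each case, with DESeq2 (538 of all genes), no filter (89), the mouse-number run as a term (170), Xist as a covariate (1056) and GC content and length offsets (627). With 1 library left out it ranged from 0 to 1, and all genes past the threshold from 4 to 142, with 4 without WT replicate 2, 6 without WT replicate 3, cKO replicate 2 or cKO replicate 3, 10 without WT replicate 1 and 142 without cKO replicate 1, against 43 as reported. The share of higher calls among all calls, 88.4% as reported, was 56.6% with quality weights and from 69.5% to 80.9% with DESeq2, no filter, mouse number, Xist, GC content and upper-quartile factors. Leaving out cKO replicate 2, cKO replicate 3 or WT replicate 2 made it 50%, leaving out WT replicate 1 made it 60%, and WT replicate 3, 66.7%. The labels do not say whether equal replicate numbers pair the libraries. Deviations of same-numbered libraries correlated at 0.39, 0.07 and −0.17, and 1 of 3 correlated best with its own number. With so few pairs this cannot decide whether the libraries are paired. With the replicate block 288 genes passed (60.1% higher), 12 lysosomal genes had an unadjusted p under 0.05 (32.4%, against 23.4% of all genes), and 1 lysosomal gene passed, Ids (log2 fold change 0.71, adjusted p = 0.028). The median over the lysosomal genes stayed between −0.13 and 0.0076 over all alternatives, within 1 SD of libraries (0.14).

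Of the 37 genes, 22 kept their sign under all 19 alternatives and 15 did not, among them Arsb (0.22 as reported) and Glb1 (−0.20), which have the widest intervals; the cause was not tested. The sign turned with the replicate block for Lamp2 (0.040), Laptm4a (−0.029), Psap (−0.029), Galc (0.029), Pld3 (−0.085), Gusb (−0.076) and Arsb (−0.0056). With the mouse-number run it turned for Lamp2 (0.0034), Cd63 (0.035), Galc (0.011) and Grn (0.0024). With GC content and length offsets it turned for Lamp2 (0.019), Laptm4a (−0.018), Grn (0.025) and Tfeb (0.024). With Xist as a covariate it turned for Cd63 (0.14), Cd68 (0.017), Tmem106b (−0.15), Hexa (0.0076), Glb1 (0.090), Galns (0.020) and Grn (0.049). With upper-quartile factors it turned for Laptm4a (−0.016), Tmem106b (−0.0020), Pld3 (−0.022) and Gusb (−0.019). With quality weights it turned for Laptm4a (−0.049), Pld3 (−0.075) and Gusb (−0.095), with the 1 CPM filter for Laptm4a (−0.011), Pld3 (−0.017) and Gusb (−0.014), and with limma-voom for Tmem106b (−0.0081), Pld3 (−0.00047) and Gusb (−0.00087). Leaving out 1 library, values spanned 0 for Lamp2 (−0.070 to 0.054), Cd63 (−0.31 to 0.086), Cd68 (−0.15 to 0.045), Laptm4a (−0.076 to 0.099), Tmem106b (−0.092 to 0.12), Psap (−0.025 to 0.12), Galc (−0.13 to 0.072), Hexa (−0.18 to 0.015), Glb1 (−0.49 to 0.033), Pld3 (−0.093 to 0.11), Gusb (−0.079 to 0.071), Galns (−0.17 to 0.017), Grn (−0.098 to 0.035) and Tfeb (−0.13 to 0.029).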

Other observations

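Genes of autophagy, which delivers cytoplasm to the lysosome, lay more often above than below WT, and 0 of 27 passed. At an unadjusted p under 0.05, 8 were higher and 1 was lower in cKO (33.3%, against 16.5% of all genes), and the median log2 fold change was 0.08. Atg3, which attaches the lipid to LC3 proteins, averaged 49.6 ± 4.31 CPM in cKO mice and 37.3 ± 2.88 CPM in WT mice (log2 fold change 0.41, SE 0.11, adjusted p = 0.13). The ATPase Vcp had a log2 fold change of 0.34 (SE 0.10, adjusted p = 0.15), and Becn1, part of the lipid kinase that starts autophagosomes, 0.31 (SE 0.10, adjusted p = 0.16).

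Of 23 genes linked to TFEB or to nutrient sensing at the lysosome, 0 passed. An unadjusted p under 0.05 was found for 3 of them (13%, against 16.5% of all genes). Flcn, folliculin, averaged 184 ± 13.8 CPM in cKO mice and 249 ± 7.81 CPM in WT mice (log2 fold change −0.43, SE 0.10, adjusted p = 0.098). Lamtor2, a subunit of the complex that docks mTORC1 to the lysosome, had 40.4, 56.7, 49.9 and 59.1 CPM in cKO, against 29.7, 35.7 and 35.9 CPM in WT mice (log2 fold change 0.61, SE 0.15, adjusted p = 0.10). Ppp3r1, a calcineurin subunit, had a log2 fold change of 0.36 (SE 0.11, adjusted p = 0.16). Groups did not overlap for any of these 3, which were picked by their smallest p. Of the 23, every cKO library was higher for 4 (17.4%, against 8.86% of all genes) and lower for 1 (4.35%, against 7.2%).

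Among 19 genes induced by dissociation of tissue, 0 passed. At an unadjusted p under 0.05, 2 were higher and 4 lower (31.6%, against 16.5% of all genes). Their summed level was between 978 and 1191 CPM in cKO mice and between 1062 and 1210 CPM in WT. Btg2 (−0.32, SE 0.09, adjusted p = 0.14), Jun (0.32, SE 0.10, adjusted p = 0.16) and Zfp36 (−0.35, SE 0.11, adjusted p = 0.17) had the smallest p.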
